A study of Bos taurus with 28 samples.

Results

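Milk extracellular vesicles (EVs) collected on the second day of sampling were compared with those collected on the first day from the same cows. The comparison holds the 6 libraries of Day 2 and the 6 Day 1 libraries of Cow 2, Cow 3 and Cow 4, out of 28 libraries in the series. Members were chosen by day and cow as labelled, and each Day 2 library was set against the Day 1 library of the same cow and session. This gives 6 pairs, made of a morning and an evening milking for each of 3 cows. Cow 1 has no Day 2 library among those analysed here and is left out. All 12 samples were skimmed raw milk of dairy cows (Bos taurus) from a single experimental herd, collected by hand during the milking routine on consecutive days. No treatment separated the days, and the cows had entered the study with a negative California Mastitis Test and a low somatic cell count (SCC). Cow age and breed are not given in the sources used here. Every cow gave all of its libraries at successive milkings, and the 6 pairs come from only 3 cows. The p-values for a day difference below reflect how much the 6 pair differences varied, both within and between these cows. Those for a difference between cows reflect how much the morning and evening pairs of a cow varied, and take in no spread between cows. For single miRNAs, the main fits drew most of the spread behind both kinds from a model shared by all miRNAs. With 3 animals, neither kind measures well how much cows in general vary. The conditions of a collection day cannot be told apart from the day itself.

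MicroRNAs (miRNAs) are short RNAs that guide Argonaute proteins to messenger RNAs with matching sites and lower their translation and stability. EVs are membrane-enclosed particles released by cells, and in milk they come from the mammary epithelium and from the cells shed into milk. Members of a miRNA family share the seed, the stretch near the 5′ end that pairs with the target, whereas members of a cluster are cut from the same transcript. In such bulk EV samples, fewer EVs of one cell type and less RNA of a miRNA per EV cannot be told apart.

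Small RNA was sequenced from the EVs, and the deposited values are log2 CPM, the log2 of read counts after each library is scaled to a common size, for 132 miRNAs. The reads behind the values numbered 116395 to 235938 per library on Day 2 (median 174219) and 101968 to 189669 on Day 1 (median 162027.5). A miRNA without reads stands at 3.55 in every library, which held for 27 of the values in the 12 libraries, and 119 miRNAs had reads in all 12. A count of 0 allows up to 3 reads, or 9.87 to 32.4 CPM depending on the library. Since reads come from amplified libraries, this limit covers counting error only. Of the markers of mammary epithelium, miR-200c, a member of the epithelial miR-200 family, was abundant. Its mean was 15.32 ± 0.21 log2 CPM on Day 2 and 15.22 ± 0.24 on Day 1 (SD, n = 6 each). miR-141 of that family was lower, at a mean of 10.62 over the 12 libraries. miR-21-5p, counted below with the immune markers, stood at 14.94.

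SCC counts the cells shed into milk, largely leukocytes, and it stayed low on both days. It was 28000 to 89000 cells/mL on Day 2 (median 48500) and 18000 to 58000 cells/mL on Day 1 (median 41500). SCC was higher on Day 2 in both pairs of Cow 2 and in the evening pair of Cow 4, and lower in both pairs of Cow 3 and in the morning pair of Cow 4. The 2 widest gaps were 89000 cells/mL on Day 2 against 36000 on Day 1 in the morning of Cow 2, and 47000 on Day 2 against 18000 on Day 1 in the evening of Cow 4. The mean log2 difference was 0.30 (SD 0.88, n = 6 pairs), with no difference detectable (exact permutation test that flips pair signs, two-sided, p = 0.438, where 0.0312 is the smallest value possible). This test treats the 6 pairs as independent, although both pairs of a cow share the animal and its days. Its p therefore holds for pairs of milkings and not for cows.

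The whole miRNA profile was compared first, by the median absolute log2 difference over the 132 miRNAs in each pair of libraries. Between Day 2 and Day 1 of the same cow and session it was 0.337 to 0.532, with a median of 0.415, which corresponds to 1.33-fold. Between the morning and evening libraries of the same cow and day it was 0.295 to 0.440 (median 0.341, 6 pairs), and between different cows on the same day and session 0.374 to 0.717 (median 0.546, 12 pairs). The ranges overlap, and the distances share libraries and were not tested. Among the day pairs, those of Cow 4 were the widest (0.532 in the morning and 0.477 in the evening) and those of Cow 3 the narrowest (0.337 and 0.373), with 0.415 in both pairs of Cow 2.

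**Figure D1:**
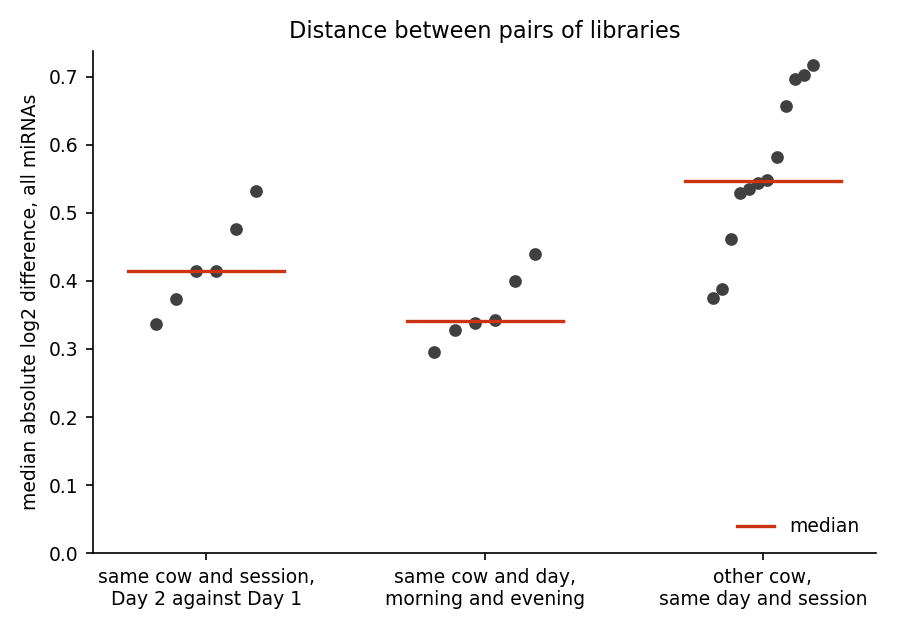
Median absolute log2 difference over 132 miRNAs (vertical axis) between Day 2 and Day 1 libraries of 1 cow and session, between morning and evening libraries of 1 cow and day, and between libraries of different cows on 1 day and session. Each point is 1 pair of libraries and the red line is the median of each kind, 0.415, 0.341 and 0.546.

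The next question was whether any miRNA differed between the days in the 3 cows in common. No miRNA passed a false discovery rate (FDR) below 0.05 in limma, a linear model with moderated variances that was fitted to all 132 miRNAs with the 6 pairs as blocks (0 of 132, 0%). Before adjustment, 11 miRNAs had a p below 0.05 (8.33% of all), 7 with higher values on Day 2 (5.3%) and 4 with lower values (3.03%). limma-voom, which models the reads behind the values, also called none and had 12 at an unadjusted p below 0.05. The values of the days overlapped for all 132 miRNAs (0% without overlap in either direction). Over the 132 miRNAs, 72 mean differences were above 0 and 60 below, with a median of 0.03. With read totals in place of the authors' scaling factors, 51 were above 0 and the median was -0.09.

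**Figure D2:**
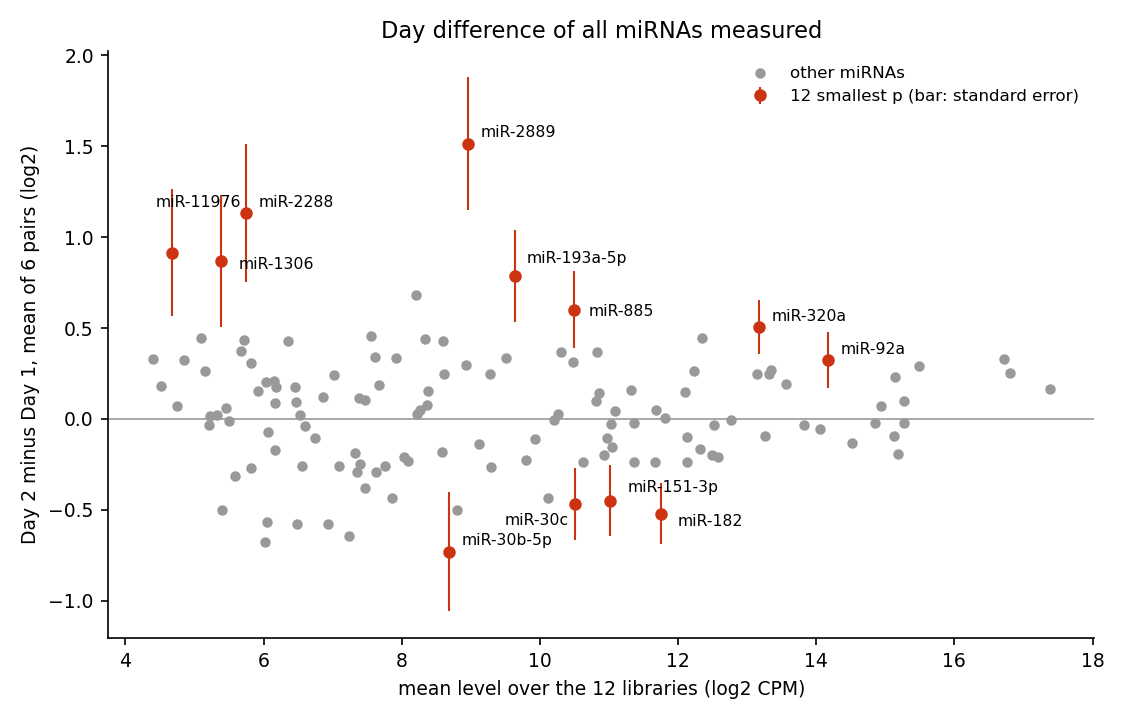
Mean log2 difference of Day 2 minus Day 1 over 6 pairs (vertical axis) against the mean level over the 12 libraries in log2 CPM (horizontal axis) for 132 miRNAs. The 12 miRNAs with the smallest p are in red with their standard errors, led by miR-2889 at 1.51, and none passed the FDR threshold.

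miR-2889, a bovine-numbered miRNA of middling abundance, came nearest to the threshold. On Day 2 it stood at 9.07, 9.83 and 10.09 log2 CPM (lowest, median and highest of 6 libraries), against 6.45, 8.04 and 9.69 on Day 1. It had 912 reads in all on Day 2 and 406 on Day 1. The 6 Day 2 libraries lay close together (SD 0.43), while the Day 1 libraries were spread widely (SD 1.26), with those of Cow 2 and Cow 4 low and those of Cow 3 at the level of Day 2. The pair differences were 1.93 and 1.70 in Cow 2 (morning and evening), -0.44 and 0.40 in Cow 3, and 2.92 and 2.57 in Cow 4. The mean difference was 1.51 (standard error 0.36, 2.86-fold, higher on Day 2 in 5 of 6 pairs), with an adjusted p of 0.0726 in limma. The call depended on the fit. The difference was 0.90 without the pairs of Cow 4 (adjusted p = 0.397), 1.36 without those of Cow 2 (0.230) and 2.28 without those of Cow 3 (0.00608), and miR-2889 also passed without a library of the Cow 3 morning pair (0.00953 and 0.00991) or of the Cow 4 morning pair (0.0348 and 0.0470). It was the only call with library medians set equal (adjusted p = 0.00265), quantile normalization (0.0439) and read totals (0.00889). The same held for means of both sessions (0.0177) and evening libraries alone (0.0299). With read totals, session means and evening libraries alone, the spread came wholly from the variance model shared by all miRNAs. The scatter of miR-2889 itself between pairs or cows did not enter those p-values. It did not pass in the mornings alone (0.936), without the variance trend (0.315) or with the 2 libraries of a cow and day as a random block (0.154). Nor did it pass with SCC (0.300) or read total (0.304) as a covariate, or in a fit of all 28 libraries (0.507).

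**Figure D3:**
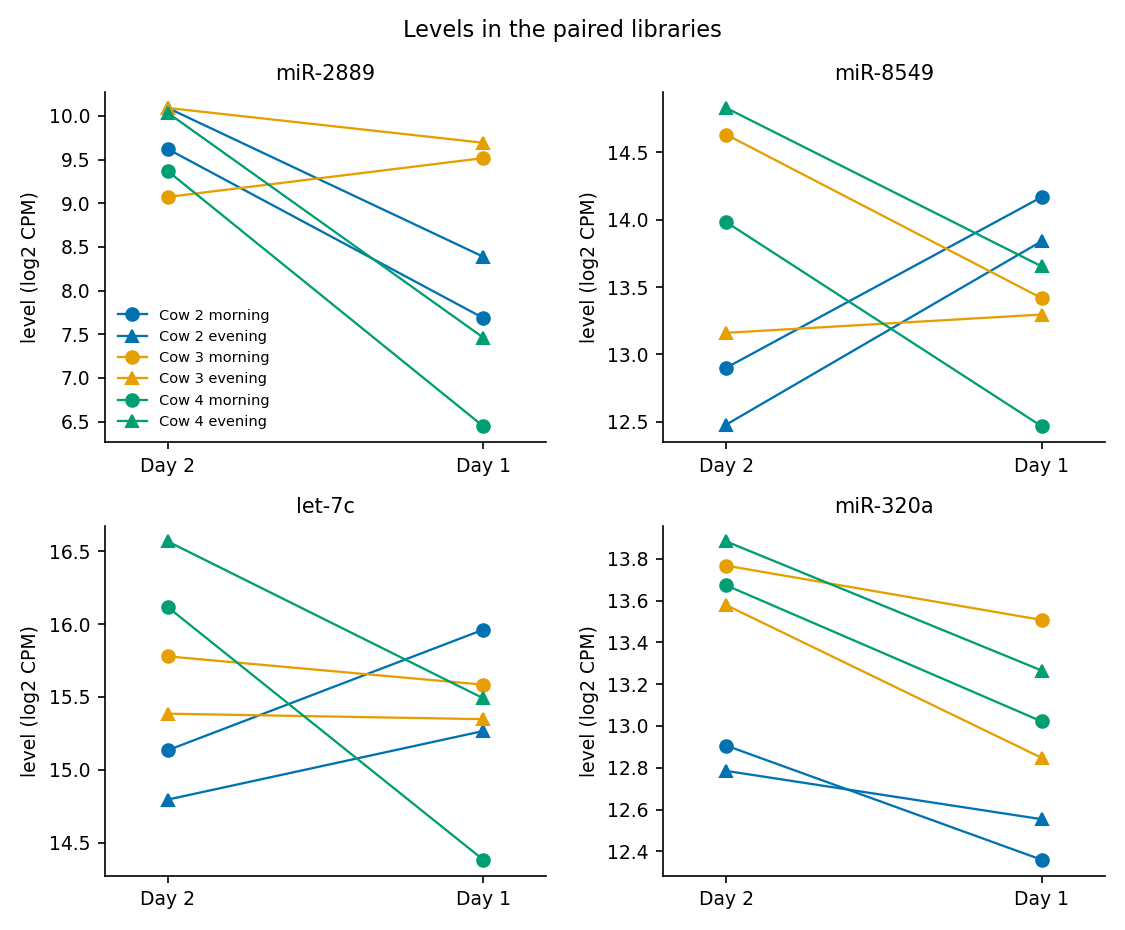
Levels in log2 CPM (vertical axes) of miR-2889, miR-8549, let-7c and miR-320a on Day 2 (left) and Day 1 (right), each line joining the libraries of 1 cow and session. Day 2 points of miR-320a lie above their Day 1 partners in all 6 pairs, whereas the lines of miR-8549 and let-7c of Cow 2 run opposite to those of Cow 4 in these deposited values.

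Another view of the days counts the pairs that moved the same way. The difference had 1 sign in all 6 pairs for 6 of the 132 miRNAs (4.55%), 5 of them higher on Day 2 (3.79%) and 1 lower (0.758%), and in at least 5 of the 6 pairs for 30 (22.7%). No test was applied to these counts, since pairs of 1 cow share the animal and its day. The 6 were set partly by the scaling, since miR-182 alone kept 1 sign in all 6 pairs under equal library medians, quantile normalization and read totals. Quantile normalization left 1 miRNA with a single sign, and read totals left 3 higher and 3 lower.

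miR-320a, whose precursor is known from mouse cells to arise without Drosha cleavage, had higher values on Day 2 in all 6 pairs. It stood at 12.79, 13.63 and 13.88 log2 CPM on Day 2 (lowest, median and highest), against 12.36, 12.93 and 13.51 on Day 1. Each pair differed by 0.23 to 0.73, and the values of the days overlapped. The mean difference was 0.51 (standard error 0.15, 1.42-fold), with an adjusted p of 0.193 in limma. miR-193a-5p, studied as a growth-limiting miRNA in human tumours, stood at 8.78, 10.37 and 10.52 log2 CPM on Day 2, against 8.39, 9.08 and 10.23 on Day 1. Its pair differences ran over 0.04 to 1.82 with a mean of 0.79 (standard error 0.25, adjusted p = 0.193 in limma). It was higher in 5 pairs with quantile normalization and in 4 with read totals, and miR-320a in 5, with a tie in the remaining pair, and in 6.

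miR-182, of the cluster of miR-183, miR-96 and miR-182 known for its role in sensory organs of mouse, had lower values on Day 2 in all 6 pairs. It stood at 10.82, 11.49 and 12.07 log2 CPM on Day 2, against 11.40, 12.07 and 12.52 on Day 1. The smallest pair difference was -0.11 in the morning of Cow 3 and the widest was -0.98 in the morning of Cow 4, with a mean of -0.52 (standard error 0.17, adjusted p = 0.193 in limma). miR-183 of the same cluster had a mean of -0.16 (standard error 0.19) and was lower in 4 of 6 pairs. miR-375, known from pancreatic islets and abundant in epithelia, was higher in all 6 pairs by only 0.00 to 0.61 as deposited, with a mean of 0.25 (standard error 0.15, adjusted p = 0.715 in limma). That mean was 0.07 with quantile normalization and 0.11 with read totals, and in each of these scalings miR-375 was higher on Day 2 in only 3 pairs.

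The other 2 miRNAs with a single sign were rare. miR-11976 had 1 to 9 reads per library on Day 2 and 0 to 3 on Day 1, and miR-1306, which in human lies within the DGCR8 gene, had 4 to 12 reads on Day 2 and 0 to 9 on Day 1. Their mean differences were 0.91 (standard error 0.35) for miR-11976 and 0.87 (standard error 0.36) for miR-1306, with adjusted p-values of 0.328 and 0.424 in limma. At these reads the values are held up by the level at which 0 reads stand.

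**Figure D4:**
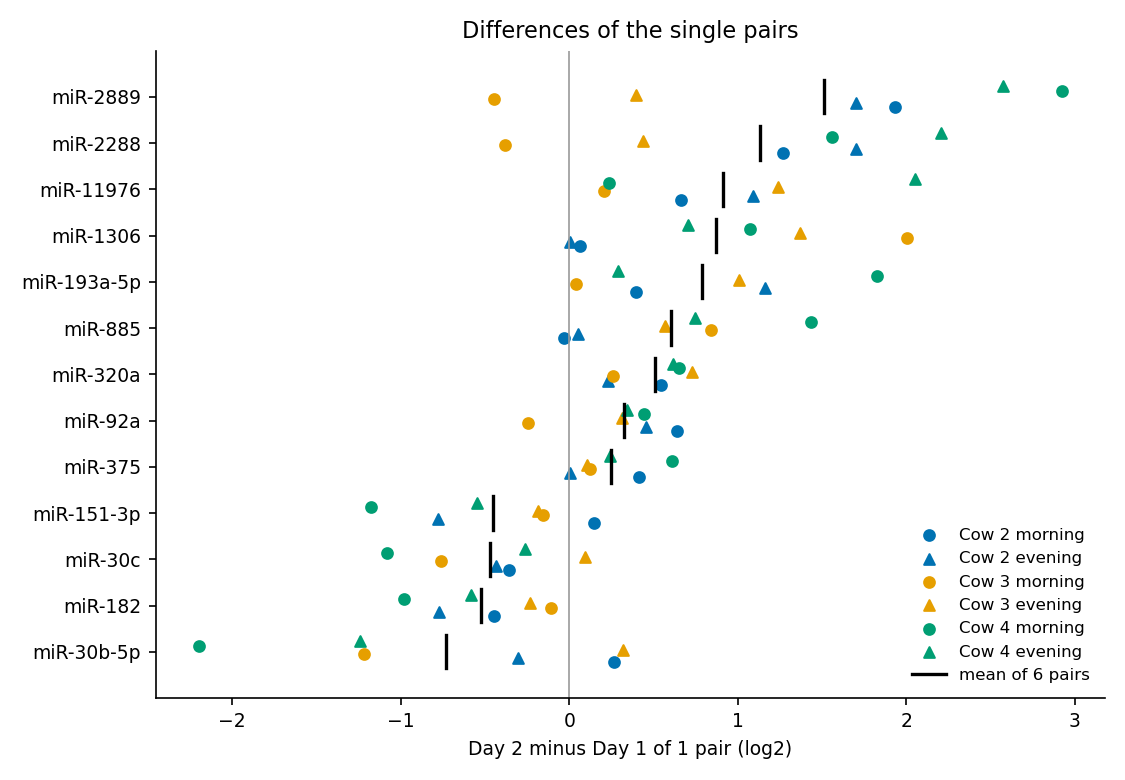
Log2 difference of Day 2 minus Day 1 in each of the 6 pairs (horizontal axis) for the 12 miRNAs with the smallest p and miR-375. Colour gives the cow, shape the session, and the black bar the mean of 6 pairs, from -0.73 for miR-30b-5p to 1.51 for miR-2889.

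The remaining miRNAs with an unadjusted p below 0.05 did not pass the test of a difference between the cows, and their pairs are given as values. miR-885, which in human is known from liver, had differences of -0.03 and 0.05 in Cow 2, 0.84 and 0.57 in Cow 3 and 1.43 and 0.75 in Cow 4, with a mean of 0.60 (standard error 0.21). miR-2288 had 4 to 31 reads per library on Day 2 and 0 to 10 on Day 1, with a mean difference of 1.13 (standard error 0.38) and means of 1.49 in Cow 2, 0.03 in Cow 3 and 1.88 in Cow 4. On the side of lower values, miR-30c had a mean of -0.47 (standard error 0.20), miR-30b-5p one of -0.73 (standard error 0.33) and miR-151-3p one of -0.45 (standard error 0.19). miR-30c and miR-30b-5p share the seed of the miR-30 family, which is known from fat cell differentiation in human. For miR-30b-5p the morning pair of Cow 4 gave -2.20 and both pairs of Cow 2 gave 0.26 and -0.30. miR-92a, whose cluster with miR-17 promotes cell growth in mouse and human, was the next by p and had a mean of 0.32 (standard error 0.16) with a single lower pair. The adjusted p-values of these 6 miRNAs lay between 0.212 and 0.567 in limma.

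The most abundant miRNAs took most of the reads, and none of them passed the test between the days. The 10 most abundant held 63.8% to 79.4% of the reads on Day 2 and 65.2% to 74.6% on Day 1. let-7a-5p, the most abundant, had 17.46 ± 0.27 log2 CPM on Day 2 and 17.30 ± 0.34 on Day 1 (SD, n = 6 each), with a mean difference of 0.16 (95% confidence interval -0.24 to 0.57). let-7f had a mean difference of -0.02 (interval -0.35 to 0.31), miR-200c one of 0.10 (interval -0.23 to 0.43) and miR-30a-5p one of -0.09 (interval -0.44 to 0.25). miR-148a, abundant in milk of cattle, had a mean of -0.19 (interval -0.55 to 0.16), and miR-21-5p, which rises in many inflamed tissues, one of 0.07 (interval -0.26 to 0.40). The mean of let-7a-5p was below 0 with quantile normalization, as was that of let-7c. Quantile normalization gives every library the same set of values, so it limits differences of the most abundant miRNAs by design. Wider intervals held for let-7b (-0.24 to 0.75), miR-3596 (-0.20 to 0.86) and let-7c (-0.24 to 0.82), whose pairs went in different directions by cow.

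Families and clusters were described by how many members had an unadjusted p below 0.05, beside 8.33% of all miRNAs, and by their median difference, beside 0.03. Some members have genes that overlap in RefSeq, namely let-7b with miR-3596, miR-148a with miR-148d, miR-26a with miR-26c and miR-374a with miR-374c. They were counted separately, although their values may not be independent. The miR-30 family had lower means on Day 2 in all 6 members (median -0.18), beside 60 of all 132 miRNAs. The p was below 0.05 in 2 (miR-30c and miR-30b-5p). No member mean was above 0 with equal library medians, quantile normalization or read totals, where 81 of all 132 were below 0 with read totals. In the single pairs some members were above 0, namely 3 and 3 in Cow 2 (morning and evening), 0 and 3 in Cow 3, and 0 and 2 in Cow 4. miR-182 was 1 of 2 in its cluster (median -0.34), and miR-320a was 1 of 2 with miR-320b (median 0.24). No member had such a p in the remaining 15 lists. Their medians were 0.21 for let-7 with miR-3596 (10 members), -0.13 for miR-200 (5), -0.21 for miR-148 (4), -0.26 for miR-29 (3), -0.19 for miR-15 and miR-16 (3) and 0.24 for the seed family of miR-25 and miR-92 (5). They were 0.26 for miR-181 (2 members, known from lymphocytes), 0.51 for the Hox cluster miRNAs miR-196a and miR-10b, -0.22 for miR-99 and miR-125 (4), 0.02 for the bovine miR-2284 and miR-2285 group (7, below 0 with read totals or quantile normalization), -0.02 for miR-26 (3, above 0 with equal library medians) and -0.06 for the miR-23, miR-27 and miR-24 cluster (4). The remaining medians were 0.12 for miR-103 and miR-107 (2, below 0 with read totals), -0.18 for miR-374 (3) and -0.10 for the cluster of miR-532 and miR-660 (4). The sizes of these medians depended on the scaling. The let-7 median was 0.12 with quantile normalization and 0.07 with read totals, and that of miR-320 was 0.04 and 0.10. With read totals, where the median of all miRNAs was -0.09, the median was 0.10 for the seed family of miR-25 and miR-92, -0.27 for miR-200, -0.32 for miR-30 and -0.35 for miR-148.

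None of the members of these 15 lists passed, and those with the smallest p are given next. Among them, let-7d had a mean difference of 0.45 (standard error 0.22), miR-99b one of -0.43 (0.22) and miR-363, which shares the seed of miR-92a, one of -0.68 (0.35). Of the marker miRNAs, miR-181a, a regulator of T cell sensitivity in mouse, had 0.37 (0.21), and the stromal and smooth muscle miR-143 had -0.58 (0.35). The next members had -0.24 for miR-141 and -0.13 for miR-200b of the epithelial miR-200 family, -0.38 for miR-29b and -0.26 for miR-29c, which target collagen genes in mouse, and -0.23 for miR-16a and -0.19 for miR-16b. They had 0.25 for miR-26b and -0.26 for miR-26a, -0.57 for miR-362-5p and -0.29 for miR-532, and 0.30 for miR-2284x and 0.43 for miR-2284j. The adjusted p-values of all miRNAs in this paragraph lay above 0.5 in limma.

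Cell type markers were followed in the same way, beside 72 of all 132 miRNAs with means above 0 and 60 below. Of 7 epithelial markers, 2 had means above 0 and 5 below (median -0.13), and they held 7.37% to 14.7% of the reads on Day 2 and 10.01% to 17.2% on Day 1. Of 6 immune markers, 5 were above 0 (median 0.21, but 0.09 with quantile normalization and 0.10 with read totals), with 2.41% to 6.03% of the reads on Day 2 and 2.91% to 4.15% on Day 1. Of 4 stromal markers, 1 was above 0 (median -0.22), with 0.532% to 1.13% on Day 2 and 0.883% to 1.25% on Day 1, and of 4 blood cell markers, 2 were above 0 (median -0.02, but 0.01 with equal library medians), with 1.56% to 3.20% on Day 2 and 1.07% to 2.88% on Day 1. None of these 21 entries had a p below 0.05, and the read shares of the days overlapped in every list. All defining markers had reads, apart from libraries in which the stromal miR-10b and the immune miR-155 were at 0.

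A second question was whether the day difference depended on the session. No miRNA passed in limma for the interaction of day and session (0%), and 4 had an unadjusted p below 0.05 (3.03%), 3 with a day difference that was lower in the evening (2.27%) and 1 with a higher one (0.758%). miR-155, induced in activated immune cells, had differences of 0.23, 2.25 and 0.89 in the mornings of Cow 2, Cow 3 and Cow 4 and of -0.43, -0.16 and -1.20 in the evenings, on 30 reads in all on Day 2 and 25 on Day 1. miR-11980, with 23 reads on Day 2 and 17 on Day 1, went the other way (interaction term 1.57), and miR-378, known from lipid and energy metabolism in mouse, had -1.54 on 38 reads on Day 2 and 41 on Day 1. The fourth, miR-3613a, was better covered (847 reads on Day 2 and 731 on Day 1) and had a term of -1.28, to which the morning pair of Cow 4 gave a difference of 2.23. All 4 had adjusted p-values of 0.970 in limma.

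The third question was whether the day difference depended on the cow, and here the data gave calls. In limma's moderated F test of day by cow, 14 of the 132 miRNAs passed (10.6%), and 31 had an unadjusted p below 0.05 (23.5%). They comprised 6 of the 10 members of let-7 with miR-3596 (let-7b, let-7c, let-7d, let-7e, miR-98 and miR-3596), let-7a-3p from the opposite arm of the let-7a precursor, miR-8549, miR-2889, miR-11971, miR-125a, miR-2340, miR-660 and miR-24-3p. In the values as deposited, Cow 2 had a negative difference and Cow 4 a positive one for the 6 let-7 members and let-7a-3p. The same held for miR-8549, miR-2340, miR-125a and miR-11971. Quantile normalization, however, turned 4 of the 10 let-7 members positive in Cow 2. miR-660 and miR-24-3p went the other way, with a positive difference in Cow 2 and a negative one in Cow 4. The pair differences of the 132 miRNAs correlated between morning and evening at 0.39 in Cow 2, -0.05 in Cow 3 and 0.53 in Cow 4, and between pairs of different cows at -0.33 to 0.18. The miRNAs of a pair share their libraries and scaling, so these correlations are given without a test.

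Each cow gave 1 Day 1 and 1 Day 2, so the test set its change against the gap between its morning and evening pairs. Ordinary change of a cow from day to day cannot be told apart here from a difference between cows. The residual degrees of freedom, which count the values left to measure the spread, were 3, beside 32.9 drawn from the shared variance model. The count rests on few pairs and on the variance model. It was 7 or 8 without a library of the Cow 4 morning pair, 4 without one of the Cow 2 morning pair and 7 without one of the Cow 2 evening pair, but 29 or 30 without one of the Cow 3 evening pair, 1 without Cow 2, 6 without Cow 4 and 23 without Cow 3. The fit without the variance trend called none (smallest adjusted p 0.0749, 28 at an unadjusted p below 0.05), quantile normalization called 4, a fit without the pairs as blocks 1 (miR-2889) and read totals 45. miR-8549, let-7c, miR-3596 and miR-2889 passed in all 12 fits that left out a library, which were added after the data were seen. Leaving out either library of a pair drops that pair from the test, so the 12 fits amount to leaving out each of the 6 pairs. Among the 3 fits that left out a cow, miR-8549 and miR-2889 passed in 2, and let-7c and miR-3596 in 1. With quantile normalization miR-8549 and miR-2889 passed, and let-7c and miR-3596, at ranks 4 and 3 by level, did not. This scaling limits differences at such high ranks by design.

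**Figure D5:**
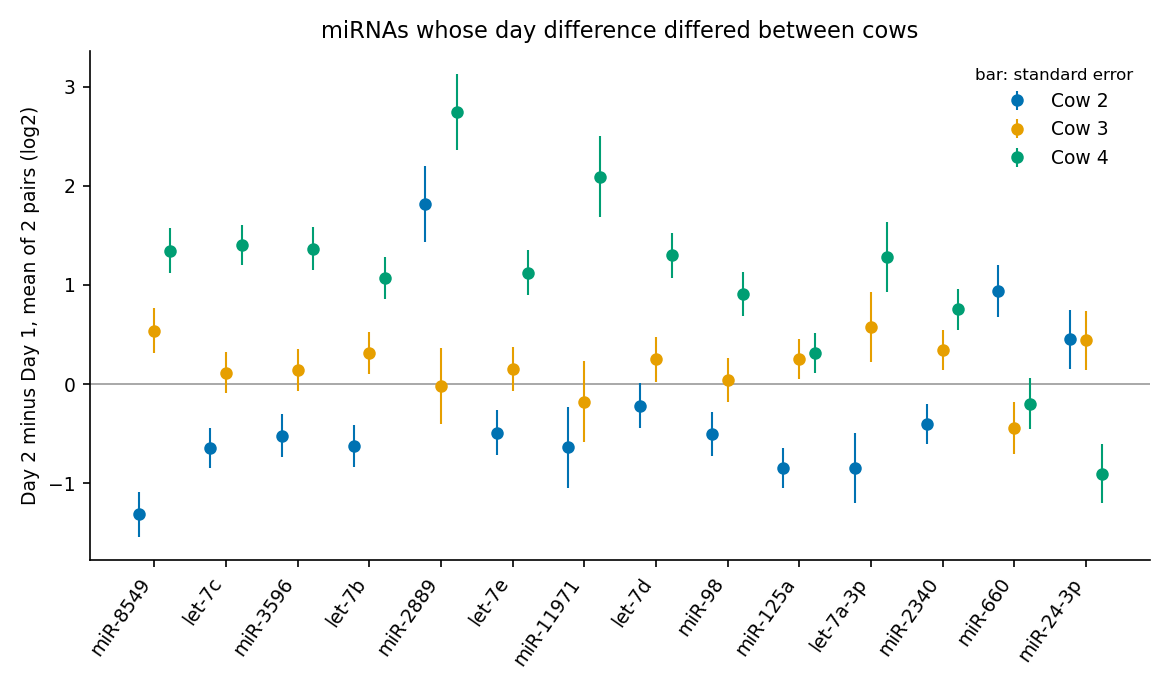
Log2 difference of Day 2 minus Day 1 within each cow (vertical axis, mean of 2 pairs with standard error) for the 14 miRNAs called by the day by cow test, in order of p. Cow 4 lies highest for the first 12 miRNAs in the values as deposited, and for miR-660 and miR-24-3p Cow 2 does.

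The let-7 family, which represses growth genes such as RAS and LIN28 in mammals, took a large share of the milk EV reads. The 10 members with miR-3596 held 59.2% of the reads on Day 2 and 41.2% on Day 1 in the morning of Cow 4, and 64.3% on Day 2 and 56.8% on Day 1 in the evening. In Cow 2 the shares were 49.98% on Day 2 and 61.3% on Day 1 in the morning and 45.3% on Day 2 and 49.98% on Day 1 in the evening. Cow 3 had 56.8% on Day 2 and 53.3% on Day 1 in the morning and 53.5% on Day 2 and 48.3% on Day 1 in the evening. Thus the share was higher on Day 2 in both pairs of Cow 4 and Cow 3 and lower in both pairs of Cow 2. Over the 6 pairs the mean difference was 3.02 percentage points (SD 10.1), with p = 0.5 in the exact two-sided permutation test. That test treats the pairs as independent, although both pairs of each cow moved the same way, so its p does not hold for cows.

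let-7c had the smallest p of the family. In Cow 4 it stood at 16.12 log2 CPM (morning) and 16.57 (evening) on Day 2, against 14.38 and 15.49 on Day 1. In Cow 2 it stood at 15.13 and 14.80 on Day 2, against 15.96 and 15.27 on Day 1. Its 4 values in Cow 3 lay within 15.35 to 15.78 on both days. The difference was 1.40 (standard error 0.20) in Cow 4, -0.65 (0.20) in Cow 2 and 0.12 (0.20) in Cow 3, and the adjusted p of the day by cow test was 7.22e-06 in limma. miR-3596 and let-7b had 1.37 and 1.08 in Cow 4, -0.52 and -0.62 in Cow 2 and 0.14 and 0.31 in Cow 3. RefSeq (assembly ARS-UCD2.0) places the miR-3596 gene over the let-7b gene, so reads may be shared between them and their values are not independent. Quantile normalization lowered the Cow 4 difference to 0.68 for let-7c (adjusted p = 0.147 in limma) and to 0.24 for let-7b (adjusted p = 0.591). let-7d and let-7e, at ranks 26 and 28 by level, still passed (adjusted p = 0.0166 and 0.0443 in limma). let-7b and let-7c ranked 2 and 4, where this scaling limits differences by design, so the loss of their calls is partly built in.

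Within Cow 4, 6 of the 10 members rose as deposited and with equal library medians, 2 rose with quantile normalization, and 5 rose and 2 fell with read totals. No member passed without the variance trend, and 2 did (let-7c and miR-3596) without either library of the Cow 4 morning pair. As deposited, let-7d (1.30), let-7e (1.12) and miR-98 (0.91) were among those that rose, whereas let-7a-5p had 0.43 (adjusted p = 0.182 in limma), let-7i 0.47, let-7f -0.08 and let-7g -0.10. In Cow 2 all 10 members had negative differences as deposited (4 were positive under quantile normalization), from -0.65 for let-7c to -0.03 for let-7g, and none passed. Quantile normalization made 3 of the 10 negative in Cow 4. With read totals 1 was positive in Cow 2 and 4 were negative in Cow 4, and with library medians set equal 1 was positive in Cow 2. Relative to the median of all 132 miRNAs, the family median was 1.11 in Cow 4, 0.10 in Cow 3 and -0.43 in Cow 2. It was 1.07, 0.10 and -0.41 with read totals, and 0.64, 0.05 and -0.05 with quantile normalization.

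Several let-7 genes lie within 10 kb of other measured miRNAs in RefSeq, as clusters that may be transcribed together. let-7e is annotated beside miR-99b and miR-125a. Within Cow 4 their differences were 1.12 for let-7e, -0.29 for miR-99b and 0.32 for miR-125a, and within Cow 2 they were -0.49, -0.92 and -0.85, so that the neighbours had 1 sign in Cow 2 and not in Cow 4. let-7c lies beside miR-99a, which had -0.18 for its 5p arm in Cow 4 and -0.05 in Cow 2. let-7d, let-7f and let-7a lie in 1 cluster, and of these let-7d had the widest difference in Cow 4. Differences between neighbours were not tested.

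miR-8549, a bovine-numbered miRNA at rank 16 by level, gave the smallest p of the day by cow test (adjusted p = 3.61e-07 in limma). In Cow 4 it stood at 13.98 and 14.83 log2 CPM on Day 2 (morning and evening), against 12.47 and 13.65 on Day 1. In Cow 2 it stood at 12.90 and 12.48 on Day 2, against 14.17 and 13.84 on Day 1. In Cow 3 the pairs disagreed, with 14.63 and 13.16 on Day 2 against 13.42 and 13.30 on Day 1. The difference was 1.35 (standard error 0.23) in Cow 4, 0.54 (0.23) in Cow 3 and -1.32 (0.23) in Cow 2. These standard errors, like the p, drew mostly on the shared variance model and not on the pairs of miR-8549 alone. Without the variance trend no miRNA passed the day by cow test. In that fit miR-8549 passed in neither Cow 4 (adjusted p = 0.0737 in limma) nor Cow 2 (0.176). The mean over all pairs was 0.19 (standard error 0.31).

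miR-2889 differed between the cows in another way, since it rose in both Cow 4 (2.75, standard error 0.38) and Cow 2 (1.82, 0.38) and had -0.02 (0.38) in Cow 3, with an adjusted p of 0.00113 for day by cow in limma. miR-11971, another bovine-numbered miRNA, stood at 9.02 and 9.55 log2 CPM on Day 2 in Cow 4, against 6.59 and 7.78 on Day 1, a difference of 2.10 (standard error 0.41). In the other cows its 4 pairs differed by -0.68 to -0.07. miR-125a, of the family of the worm lin-4 miRNA, fell within Cow 2, with 12.98 and 13.06 on Day 2 against 13.90 and 13.83 on Day 1 (-0.85, standard error 0.20). miR-660, of a cluster on the X chromosome in human, rose within Cow 2 (0.94, standard error 0.26). miR-24-3p, known from cell cycle control in human cells, fell within Cow 4 (-0.91, standard error 0.30). The last 3 calls did not hold in every scaling. miR-125a had -0.48 with quantile normalization (adjusted p = 0.329 in limma) and -0.63 with read totals (0.0514). miR-660 and miR-24-3p had adjusted p-values of 0.0524 and 0.153 with quantile normalization, and none of the 3 passed without the variance trend (0.131 to 0.227). In that fit miR-2889 did not pass within Cow 2 either (adjusted p = 0.0868 in limma). Within Cow 4, miR-2889 (0.00761) and miR-11971 (0.0109) still passed.

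The contrasts within single cows, which were added after the data were seen, gave 4 calls in Cow 2 (3.03%), 0 in Cow 3 (0%) and 22 in Cow 4 (16.7%). An unadjusted p below 0.05 was held by 26 miRNAs in Cow 2 (19.7%, with 9.85% in each direction), 10 in Cow 3 (7.58%, with 6.06% higher and 1.52% lower) and 36 in Cow 4 (27.3%, with 15.9% higher and 11.4% lower). In Cow 2 miR-2889 and miR-660 rose (1.52%) and miR-8549 and miR-125a fell (1.52%). In Cow 4, 16 rose (12.1%) and 6 fell (4.55%). Without a library of the morning pair of Cow 4, the calls in that cow dropped to 4 or 5, with let-7c, miR-3596, miR-8549 and miR-2889 among them in both cases. They were 12 without any one library of Cow 2, and in Cow 2 they were 0 without any one of its own libraries, 13 or 14 without one of Cow 3 and 5 to 8 without one of Cow 4. In Cow 3, 2 passed when any one of its own libraries was left out. The split depended on the scaling, since read totals gave 9 higher and 48 lower calls in Cow 4 and 11 higher and 1 lower in Cow 2, quantile normalization gave 8 and 1 in Cow 4 and 1 and 3 in Cow 2, and library medians set equal gave 16 and 8 in Cow 4 and 3 and 2 in Cow 2. Read totals moved the median difference of all miRNAs to -0.59 in Cow 4 (-0.12 as deposited) and to 0.22 in Cow 2 (0.02 as deposited), and equal library medians moved it to 0.15 in Cow 3 (0.04 as deposited).

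Other measures moved with these differences, and their part in them was not tested. The authors' scaling factors were 0.819 and 0.696 on Day 2 in Cow 4 (morning and evening), against 1.23 and 0.932 on Day 1, and 1.15 and 1.29 on Day 2 in Cow 2, against 0.909 and 1.21 on Day 1. In Cow 4 the 10 most abundant miRNAs held 75.9% and 79.4% of the reads on Day 2, against 65.2% and 74.6% on Day 1. SCC was higher on Day 2 in both pairs of Cow 2 and in the evening pair of Cow 4, whose let-7 differences had opposite signs.

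miR-196a and miR-10b, encoded in the Hox gene clusters, were near the limit of detection in Cow 3. miR-196a had 22 reads (morning) and 1 (evening) on Day 2 in Cow 3, against 0 and 2 on Day 1. In Cow 2 it had 246 and 419 reads on Day 2, against 109 and 212 on Day 1, and in Cow 4 it had 124 and 58 on Day 2, against 127 and 103 on Day 1. Its pair difference of 4.13 in the morning of Cow 3 therefore rests on a single library, and the other 5 pairs differed by -0.74 to 0.57. miR-10b had 0 to 9 reads per library on Day 2 and 0 to 12 on Day 1, and its only read in Cow 3 was in the same Day 2 morning library. The mean differences over all pairs were 0.68 (standard error 0.46) for miR-196a and 0.33 (standard error 0.35) for miR-10b, with adjusted p-values of 0.787 in limma for both.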

How the data were processed

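EV small RNA of 28 skimmed milk samples was sequenced as single-end reads. The authors trimmed reads (Trim Galore!), collapsed them to unique sequences, dropped those of low CPM, assigned the rest to bovine miRBase entries and grouped isomiRs. The deposited values are log2 CPM made by the authors with edgeR for 132 miRNAs, and a genome build is not given in the sources used here. Whole read counts were worked back from all values (largest miss under a tolerance of 0.01) for depth and for limma-voom. Depth per library was 101968 to 235938 reads in the 12 libraries compared.

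limma 3.58.1 in R 4.3.3 was fitted to the deposited log2 values with the variance trend, and two-sided p-values were adjusted over 132 miRNAs by Benjamini-Hochberg (FDR below 0.05). Terms were the 6 pairs of cow and session as blocks, day, and in separate fits day by session or day by cow. The pairing follows the cow labels, and deviations from the day means correlated at 0.25 to 0.61 within the pairs. Contrasts within cows used the spread over all 3 cows. Fits were also run on simulated counts with known changes. Apart from those changes, the simulation held no day variation shared by both pairs of a cow. It therefore cannot tell how often such variation gives false calls. Other values were computed in Python 3.11.15. Gene neighbours came from RefSeq (assembly ARS-UCD2.0), in which 130 of the 132 names matched.

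Named miRNAs were the 12 with the smallest p for day, those with 1 sign in 6 pairs, the 10 most abundant, the 6 smallest p of each interaction, miR-196a, miR-10b and 2 per list. miR-11971, miR-98, miR-125a, let-7a-3p, miR-2340, miR-660, miR-24-3p, let-7g, let-7i, miR-423-5p and miR-7 were named after their values were seen. The members and lists were chosen with earlier results of these data known. Alternatives covered variance model, scaling, added CPM, dropping miRNAs under a mean of 7 log2 CPM, blocks, covariates, sessions and omitted cows or libraries.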

Additional observations from a re-analysis of the deposited data

Results flagged for a closer look

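In the main fit 14 miRNAs passed the day by cow test, but 0 passed without the variance trend and 1 without the pairs as blocks. Each cow gave 1 Day 1 and 1 Day 2, so ordinary change from day to day is not set apart. The adjusted p-values in limma were 3.61e-07 for miR-8549, 7.22e-06 for let-7c, 7.10e-05 for miR-3596, 0.000335 for let-7b, 0.00113 for miR-2889, 0.00120 for let-7e and for miR-11971, 0.00200 for let-7d, 0.00397 for miR-98 and for miR-125a, 0.00603 for let-7a-3p, 0.0124 for miR-2340, 0.0130 for miR-660 and 0.0294 for miR-24-3p.

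Among 88 groups of 6 values checked for a library far from the others, 6 were found, and chance gives about 5% of such groups. On Day 2, miR-30c was low in the morning of Cow 2 (9.80 log2 CPM) and miR-125a was high in the evening of Cow 4 (13.79). On Day 1, let-7d was low in the morning of Cow 4 (11.09) and miR-10b was high in the same library (6.09). Among the differences of Day 2 minus Day 1, the morning pair of Cow 3 stood apart for miR-92a (-0.24, the only negative pair) and for miR-196a (4.13).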

How the results depend on the processing

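Over all alternatives, none of the 13 miRNAs followed for the day difference turned its sign (439 values). These were the 12 with the smallest p and miR-375, picked by that same difference or its signs, so steady signs were favoured in advance. Changing only the variance trend or the blocks leaves the mean as it is, and leaving out either library of a pair gives the same mean. The day count of 0 became 1, always miR-2889, with library medians set equal, quantile normalization, means of both sessions, evening libraries only and read totals, and was 0 to 1 when cows or libraries were left out (1 without Cow 3, a library of the Cow 3 morning pair or a library of the Cow 4 morning pair). In fits with no replicate block the pairing was dropped, and the day count stayed 0 with day alone, with cow and with cow and session as covariates. The day by cow count of 14 was 1 with no replicate block, 0 without the variance trend, 4 with quantile normalization and 45 with read totals (9 of the 14 among them), and 1 to 30 on omission of cows or libraries. It was 1 without Cow 2, 6 without Cow 4 and 23 without Cow 3. Within Cow 2 the 4 calls became 0 without the trend and 12 with read totals, and 0 to 14 on omission. Within Cow 3 there was 1 (miR-196a) with equal medians and with read totals, and 0 to 2 on omission. Within Cow 4 the 22 calls became 3 without the trend, 9 with quantile normalization and 57 with read totals, and 4 to 31 on omission. The use of read totals, the contrasts within cows and the omissions for day by cow were chosen after seeing the data. A cow left with a single pair was assumed to vary like the others. SCC differences were 0.03 to 0.72 and the median profile distance 0.394 to 0.446 when a cow was left out. The day by session count stayed 0. With 6 pairs of 3 animals and few reads for rare miRNAs, small differences could not be detected.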

Other observations

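Within Cow 4, 10 further miRNAs passed the threshold in limma although their day by cow test did not, so that a difference from the other cows was not shown for them. miR-885 (1.09), miR-2288 (1.88), miR-423-5p (0.77), miR-320a (0.63) and miR-193a-5p (1.06) rose on the log2 scale. miR-30b-5p (-1.72), miR-7 (-1.77), which is known from neurons and pancreas in mouse, miR-151-3p (-0.86), miR-141 (-0.89) of the epithelial miR-200 family and miR-182 (-0.78) fell. Of these, miR-320a, miR-193a-5p and miR-182 had the sign seen in Cow 4 in all pairs of the other cows too, as deposited.

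In the single pairs, 14 to 35 of the 132 miRNAs differed by more than 1 on the log2 scale between Day 2 and Day 1, with 35 in the morning and 30 in the evening of Cow 4, 17 and 14 in Cow 2 and 22 and 20 in Cow 3.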
